A study of Homo sapiens with 6 samples.

Results

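The genes described here are 10 genes of bone morphogenetic protein (BMP) signalling and its targets, the ID proteins, measured by RNA sequencing in T47D cells kept in normoxia or hypoxia. They were taken by their gene symbols from the deposited count tables, and all 10 were found among the 27754 genes listed. They comprise ID proteins (ID1, ID2, ID3 and ID4), ligands (BMP4 and BMP7), receptors (BMPR1A, BMPR1B and BMPR2) and an inhibitory SMAD (SMAD6). T47D is an established luminal-like human breast cancer cell line, and the study used this line to ask how hypoxia changes breast cancer cell plasticity. The libraries were prepared from T47D cells in adherent culture in RPMI medium with 10% FBS. In the hypoxia group (n = 3 libraries) the cells had spent 48 h in 0.5% O2, and in the normoxia group (n = 3 libraries) they were control cells in 20% O2. The O2 level of the hypoxia group is that of the labels and is lower than the level named in the study's text. The cells carried no introduced allele and received no drug.

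BMPs are secreted ligands that bring type I and type II receptors together at the cell surface. The type II receptor activates the type I receptor, which phosphorylates SMAD1, SMAD5 and SMAD9, and these move into the nucleus with SMAD4. The ID genes are direct targets of this complex in many cell types, and so is SMAD6, which feeds back to inhibit the receptors. ID proteins have a helix-loop-helix domain but no basic region, so they pair with E proteins such as TCF3 and hold them away from DNA. In the mammary gland, ID1 is known for opposing differentiation, and ID4 for its place in basal cells.

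The libraries held between 32989104 and 89883409 counts, with hypoxia replicate 3 the deepest. At these depths a floor of 3 counts equals 0.0334 to 0.0909 counts-per-million (CPM), which covers counting error only. Values are CPM after TMM normalization, and a change is the log2-fold change (log2FC) of hypoxia over normoxia from edgeR's quasi-likelihood test of 15657 genes, with Benjamini-Hochberg adjustment and a threshold of 0.05. VEGFA, a known target of the hypoxia response, had a log2FC of 4.36 (adjusted p = 5.16e-06). The luminal keratins KRT8, KRT18 and KRT19 were abundant in every library, at 1639 to 7450 CPM. Libraries numbered 3 stood apart in both conditions, for example in vimentin (VIM), at 12.8 and 10.95 CPM against 0.177 to 0.957 CPM in the other 4 libraries. The marker counts that follow are to be read beside the whole test, which called 30.4% of its 15657 genes higher and 29.1% lower. The list of 16 basal or mesenchymal cell markers had 5 higher and 0 lower in hypoxia, 7 that did not pass and 4 too low to test. Their summed level was 269 to 280.0 CPM in normoxia and 372 to 436 CPM in hypoxia, with the groups apart. Of the basal keratins, KRT14 had 0 or 1 counts per library in normoxia and 3, 0 and 0 in hypoxia, and KRT5 had 0, 2 and 0 counts in normoxia and 7, 10 and 42 in hypoxia, both too low to test. KRT17 had 3, 3 and 0 counts in normoxia and 35, 34 and 109 in hypoxia (log2FC 4.12, adjusted p = 0.000448). KRT17 passed the filter on low counts only through hypoxia, and so did CDH2 (30, 17 and 8 counts in normoxia), so these 2 calls are descriptions. Among 10 luminal markers 1 was higher, 5 were lower and 4 did not pass, and their summed level was 13278 to 17576 CPM in normoxia and 9418 to 12806 CPM in hypoxia. Among 12 fibroblast, endothelial and blood cell markers 4 were tested, with 2 higher. Of these 2, PDGFRB (0, 0 and 3 counts in normoxia) passed the filter only through hypoxia, so its call is a description. The summed level of the 12 was 86.2 to 98.0 CPM in normoxia and 85.1 to 108 CPM in hypoxia. The part of these markers, and of the libraries numbered 3, in the results was not tested. Without both libraries numbered 3, VIM passed as higher (log2FC 1.87, adjusted p = 0.000476). KRT8 and KRT18 then passed as lower (-0.50 and -0.29, adjusted p = 1.2e-05 and 0.000946). Calls of other markers also changed, so the marker counts hold only for all 6 libraries. For members and named pathway genes, values without both libraries numbered 3 are given where they alter a call. The labels do not say whether the replicates were separate cultures, so p-values measure only the spread between these libraries.

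Short sequence matches near these genes are shown first, because letters that SMAD complexes and hypoxia-inducible factors are known to bind can be seen in them. The spaced SMAD motif was searched as GGCG or GACG followed by any base, a C, any 5 bases and GTCT, on both strands, in the 2000 bases upstream of the first counted base of each gene in GRCh37. It was present upstream of ID1 and ID3 and of no other member, and in 1.28% of the 27006 upstream windows of this length. The ID1 match begins 905 bases before the first counted base and the ID3 match 213 bases before it. The windows at chr20:30192174-30192202 (plus strand, ID1) and chr1:23886477-23886505 (minus strand, ID3) lie outside the counted exons of both genes. They read as follows, with the fixed letters of the motif in capitals.
ID1: caggcctGGCGtCtaacgGTCTgagccgc
ID3: aattcctGACGcCagtgaGTCTggaggtc

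The core of the hypoxia response element was searched as ACGTG on both strands in the RefSeq promoter windows of GRCh38.p14, which run from 250 bases before to 50 bases after the start of a gene. Windows were matched for 9 members, all but BMP7. ACGTG was present for ID1, ID2 and SMAD6, and in 21.6% of all 27305 promoters. The longer CACGTG, which contains ACGTG, was present for 0 members and in 7.43% of all promoters. GGCGCC was present for BMP4 and BMPR2, and in 19.0% of all promoters. GTCT was present for 8 of the 9 matched members and in 84.1% of all promoters. The windows around ACGTG in ID2 (chr2:8681953-8681977, plus strand), SMAD6 (chr15:66702139-66702163, plus strand) and ID1 (chr20:31605283-31605307, plus strand, where the match is on the other strand) are given with the match in capitals. A match is a description of the letters and not of binding.
ID2: gtcttgatagACGTGccaccttccg
SMAD6: ctgcaatgggACGTGttctccttta
ID1: actctcattcCACGTtcttaactgt

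In hypoxia, 5 of the 10 members were higher (ID2, BMP4, BMP7, BMPR2 and SMAD6), 1 was lower (ID4) and 4 did not pass the test (ID1, ID3, BMPR1A and BMPR1B). All 10 passed the filter on low counts, BMP7 only through its counts in hypoxia, so its entry among the higher members and in the median below is a description. Among all 15657 tested genes, 59.5% passed in either direction, 30.4% as higher and 29.1% as lower. The median log2FC of the members was 0.51, against 0.028 for all tested genes. The ranges of CPM in the 2 conditions did not overlap for 6 members, 5 of them higher, and did not overlap for 67.3% of all tested genes (34.9% with hypoxia higher). In bulk RNA, fewer cells of a type and less RNA per cell cannot be told apart. With the replicate number as a block, 6 members were higher and 2 lower, and 36.6% of all genes were higher and 35.2% lower.

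**Figure D1:**
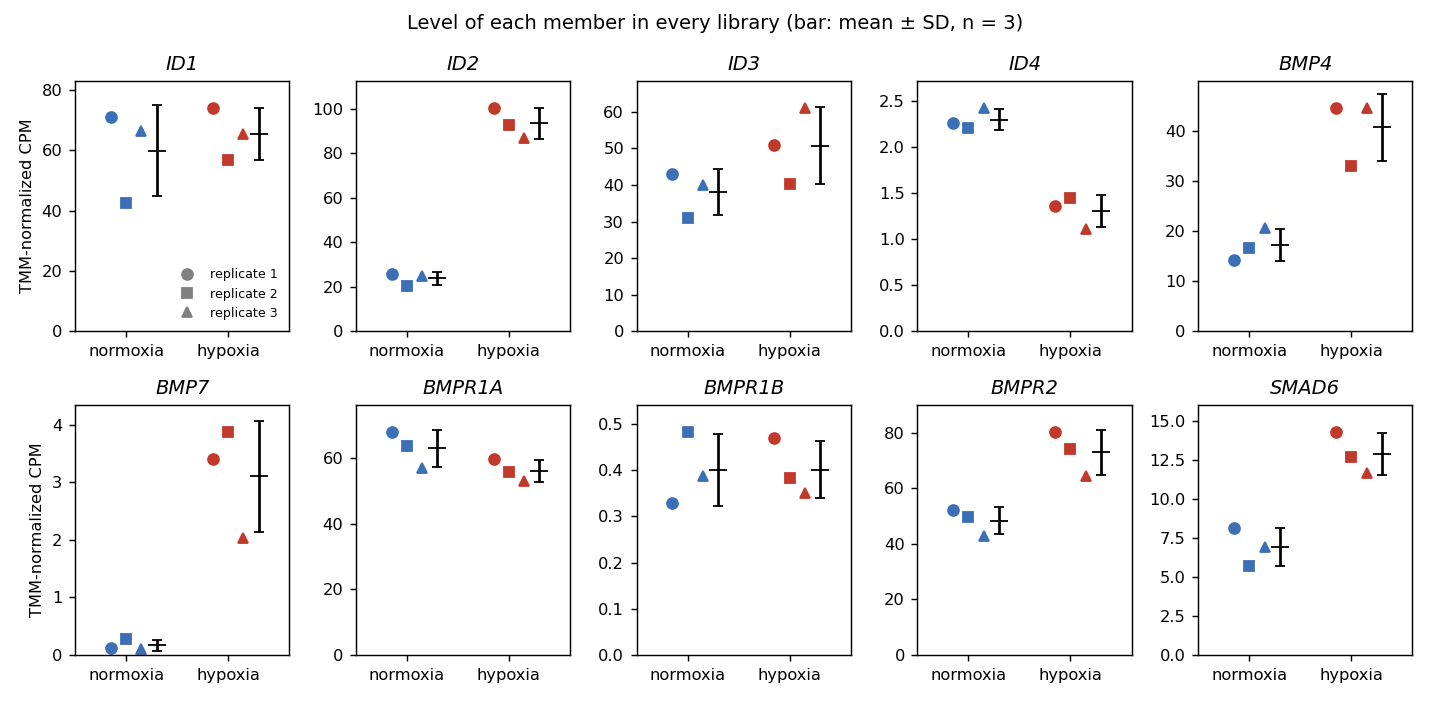
TMM-normalized CPM (vertical axis, from 0 and with its own scale in each panel) of each member in the 3 normoxia (blue) and 3 hypoxia (red) libraries, with replicate numbers as symbols and the mean ± SD beside them. ID2, BMP4, BMP7, BMPR2 and SMAD6 have all hypoxia libraries above all normoxia libraries, ID4 has them below, and the other 4 members overlap.

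ID2 rose most among the ID genes. Its level was 25.6, 20.5 and 25.0 CPM in normoxia (replicates 1, 2 and 3, the order used throughout) against 100.4, 92.9 and 86.9 CPM in hypoxia. Every hypoxia library was above every normoxia library, by a wide margin. ID2 had a log2FC of 1.98 (standard error 0.11, adjusted p = 3.49e-05), or 3.94-fold, and 6.76% of all tested genes changed by at least as much in either direction. ID2 lies on the plus strand of chromosome 2 (8822113 to 8824583, GRCh37).

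ID1, the gene of the family with the highest level in normoxia, was at 71.0, 42.6 and 66.3 CPM in normoxia and at 74.1, 56.8 and 65.5 CPM in hypoxia. The replicate 2 library was the lowest of its condition in both cases, and the groups overlapped. ID1 had a log2FC of 0.13 (95% interval from -0.31 to 0.57, adjusted p = 0.586). Its sign depended on 1 library, since without normoxia replicate 2 it was -0.086 (adjusted p = 0.584). ID1 lies on the plus strand of chromosome 20 (30193086 to 30194317).

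ID3 was at 43.0, 31.0 and 40.1 CPM in normoxia and at 51.0, 40.2 and 61.1 CPM in hypoxia. Each hypoxia library was above the normoxia library of the same number, while the groups overlapped, because hypoxia replicate 2 was below normoxia replicate 1. For ID3 the log2FC was 0.42 (95% interval from 0.018 to 0.82, adjusted p = 0.0677), which did not pass. It passed with the replicate block (adjusted p = 0.0018), with edgeR's exact test (adjusted p = 0.0436), with upper-quartile factors (adjusted p = 0.0157), without hypoxia replicate 2 (0.56, adjusted p = 0.0241) and without both libraries numbered 3 (0.31, adjusted p = 0.0467). ID3 lies on the minus strand of chromosome 1 (23884421 to 23886285).

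ID4 moved the other way. It was at 2.25, 2.20 and 2.42 CPM in normoxia and at 1.36, 1.45 and 1.10 CPM in hypoxia, with 53 to 101 counts per library. All hypoxia libraries were below all normoxia libraries. Its log2FC was -0.82 (standard error 0.20, adjusted p = 0.00852), which leaves 0.564 of the level in normoxia. ID4 lies on the plus strand of chromosome 6 (19837601 to 19842431).

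The make-up of the ID family therefore differed between the conditions. Counts were divided by the length of the counted exons to give RPKM (CPM per kilobase), so that genes can be compared. ID2 made up 16.8%, 20.0% and 17.5% of the summed RPKM of the 4 genes in the normoxia libraries, and 42.0%, 46.3% and 38.3% in hypoxia. ID1 made up 51.6%, 46.0% and 51.2% in normoxia and 34.3%, 31.4% and 31.9% in hypoxia. ID3 held 31.7% ± 1.36 (SD, n = 3) in normoxia and 25.1% ± 4.01 (SD, n = 3) in hypoxia, and ID4 less than 1% in every library.

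ID1 was thus the leading ID transcript in all normoxia libraries and ID2 in all hypoxia libraries. The ratio of ID2 to ID1 was 0.325, 0.435 and 0.341 in normoxia and 1.22, 1.48 and 1.20 in hypoxia. The groups did not overlap. An exact permutation test of the log2 ratio then gives a two-sided p of 0.10, the smallest that 3 against 3 libraries allow. Both ratios of this paragraph were chosen after the values were seen, so their tests add no support. The ratio of ID3 to ID1 was 0.601 to 0.723 in normoxia and 0.685 to 0.928 in hypoxia (exact permutation test, two-sided p = 0.30), with overlapping groups. The summed RPKM of the family was 112, 75.2 and 105 in normoxia and 175, 147 and 166 in hypoxia.

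**Figure D2:**
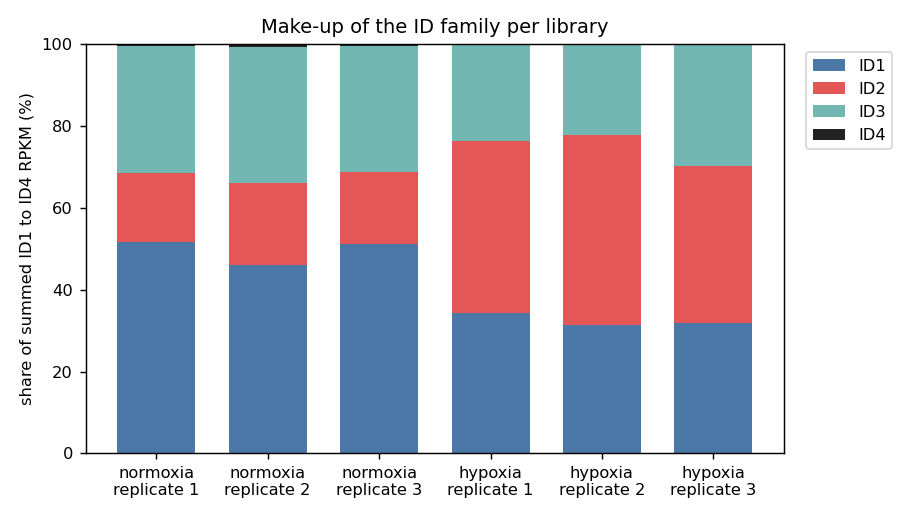
Share of each ID gene in the summed RPKM of ID1 to ID4 (vertical axis, %), with 1 bar for each library. ID2 takes 16.8% to 20.0% in normoxia and 38.3% to 46.3% in hypoxia, and the share of ID1 is lower in every hypoxia library than in any normoxia library.

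Among all 10 members, the order of levels per length in normoxia was ID1 (48.7 ± 12.4 RPKM), ID3 (30.7 ± 5.05), BMPR1A (17.4 ± 1.54), ID2 (17.4 ± 2.03), BMP4 (6.68 ± 1.25), BMPR2 (4.002 ± 0.399), SMAD6 (2.30 ± 0.400), ID4 (0.592 ± 0.0296), BMPR1B (0.0673 ± 0.0131) and BMP7 (0.0407 ± 0.0228; SD, n = 3 for each). ID1 and ID3, BMPR1A and ID2, and BMPR1B and BMP7 were neighbours whose ranges over the libraries overlapped. In hypoxia the order began with ID2 (68.5 ± 4.97 RPKM), ID1 (53.1 ± 7.03), ID3 (41.0 ± 8.42), BMP4 (15.8 ± 2.58) and BMPR1A (15.5 ± 0.933). It ended with BMPR2 (6.05 ± 0.670), SMAD6 (4.28 ± 0.445), BMP7 (0.770 ± 0.240), ID4 (0.336 ± 0.0460) and BMPR1B (0.0674 ± 0.0104). There the ranges of ID1 and ID3 and of BMP4 and BMPR1A overlapped. BMP7 went from below BMPR1B to above ID4.

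Both ligands rose. BMP4, which signals through BMPR1A or BMPR1B with BMPR2, was at 14.3, 16.7 and 20.7 CPM in normoxia and at 44.5, 33.0 and 44.4 CPM in hypoxia. Hypoxia replicate 2 was the lowest of its group and was still above all normoxia libraries. BMP4 had a log2FC of 1.24 (standard error 0.17, adjusted p = 0.000617), or 2.37-fold. BMP4 lies on the minus strand of chromosome 14 (54416455 to 54423609).

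BMP7, a ligand that also uses the type I receptor ACVR1, was near the floor in normoxia, with 5, 10 and 3 counts, and had 138, 142 and 185 counts in hypoxia. These corresponded to 0.127, 0.269 and 0.0969 CPM in normoxia and to 3.41, 3.88 and 2.02 CPM in hypoxia, with replicate 3 the lowest library of each condition. For BMP7 the log2FC was 4.19 (standard error 0.43, adjusted p = 0.000201), a size reached by 1.11% of all tested genes in either direction. From the summed counts of 18 and 465, the ratio was 16.5 with an exact 95% interval of 10.3 to 28.1, which covers counting error only. Even in hypoxia its level per length was 0.770 RPKM, against 15.8 RPKM for BMP4. BMP7 lies on the minus strand of chromosome 20 (55743809 to 55841707).

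The receptors did not change together. BMPR2, the type II receptor dedicated to BMPs, was at 52.2, 49.7 and 42.9 CPM in normoxia and at 80.5, 74.1 and 64.4 CPM in hypoxia. Its groups did not overlap, and the log2FC was 0.59 (standard error 0.11, adjusted p = 0.0028), or 1.51-fold. The log2 ratio of same-numbered libraries was 0.62, 0.58 and 0.58 for numbers 1, 2 and 3, so the pairs moved alike.

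BMPR1A, the type I receptor with the higher level in T47D cells, was at 68.2, 63.7 and 57.1 CPM in normoxia and at 59.7, 55.9 and 53.0 CPM in hypoxia. The groups overlapped, although each hypoxia library was below the normoxia library of its number. Its log2FC was -0.17 (95% interval from -0.38 to 0.049, adjusted p = 0.156). It passed as lower with the replicate block (-0.16, adjusted p = 0.0282) and without both libraries numbered 3 (-0.19, adjusted p = 0.0276), while upper-quartile factors gave -0.010 (adjusted p = 0.939). BMPR1B, the other type I receptor of this group, had 12 to 32 counts per library and 0.400 ± 0.0779 CPM in normoxia and 0.401 ± 0.0616 CPM in hypoxia (SD, n = 3). Its log2FC was -0.016 (95% interval from -0.71 to 0.67, adjusted p = 0.967). The counted exons span 88516396 to 88684945 on chromosome 10 for BMPR1A, 95679128 to 96079601 on chromosome 4 for BMPR1B, and 203241050 to 203432474 on chromosome 2 for BMPR2, each on the plus strand.

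SMAD6, the inhibitory SMAD that blocks type I receptors of the BMP pathway, was at 8.13, 5.72 and 6.95 CPM in normoxia and at 14.3, 12.7 and 11.7 CPM in hypoxia. All hypoxia libraries were above all normoxia libraries. Its log2FC was 0.89 (standard error 0.16, adjusted p = 0.00207), or 1.86-fold. SMAD6 lies on the plus strand of chromosome 15 (66994674 to 67074337). No counted exon of any member shared bases with an exon of another counted gene.

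**Figure D3:**
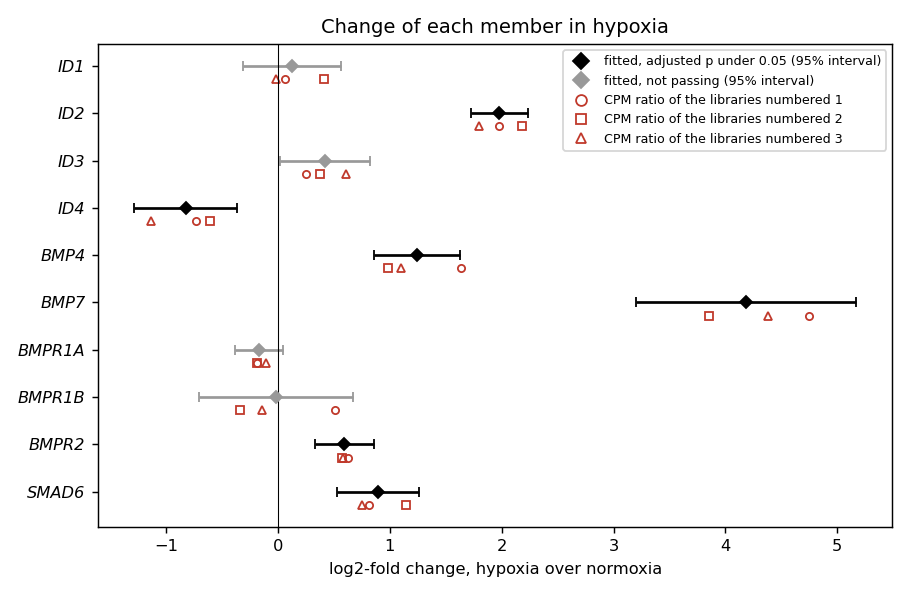
log2FC of hypoxia over normoxia (horizontal axis) of each member, as fitted by edgeR with its 95% interval (diamonds, black where the adjusted p is under 0.05) and as the ratio of CPM in libraries of the same number (open red symbols). BMP7 lies at 4.19 and ID2 at 1.98, while the intervals of ID1, BMPR1A and BMPR1B include 0.

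The wider pathway was described with 102 other genes in 8 lists by role, chosen with earlier results of these data known. The filter on low counts left 63 of them, with 37 higher, 9 lower and 17 that did not pass, beside 30.4% higher and 29.1% lower among all tested genes. The median log2FC of the tested ones was 0.36. A gene that is silent or nearly so in one condition enters the test only through the other, so these counts are a description. This holds for BMP6, FST, HEY1 and ATOH8, which passed the filter only through hypoxia.

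**Figure D4:**
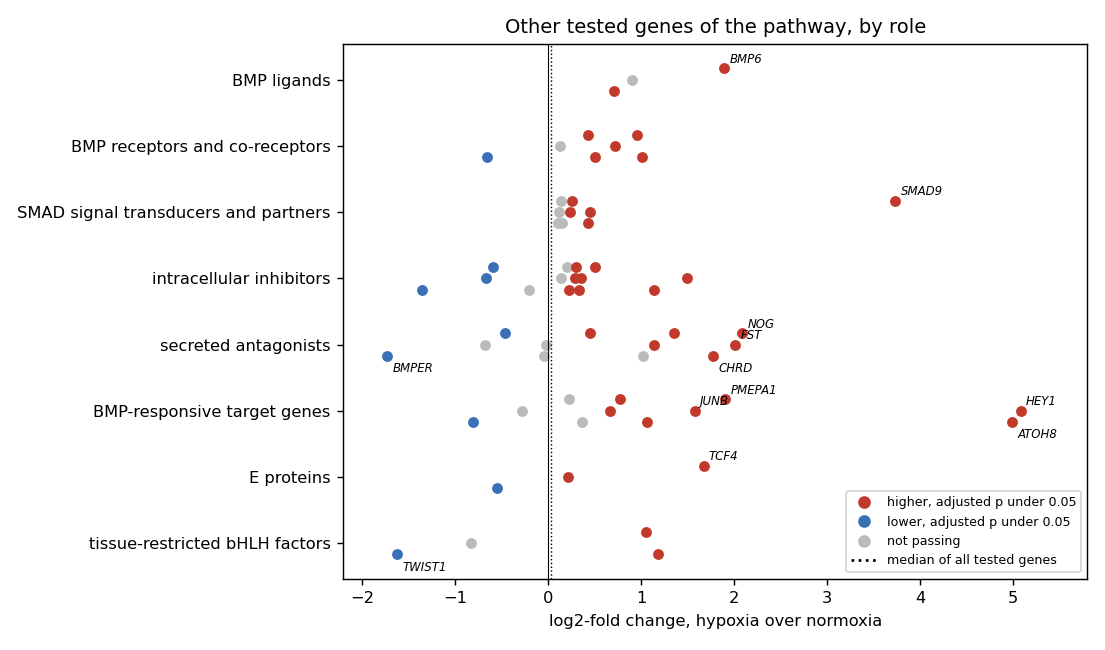
log2FC of hypoxia over normoxia (horizontal axis) of the 63 other tested pathway genes, by role, in red where higher, blue where lower and grey where the test was not passed, with names for changes beyond 1.5 that passed. The dotted line is the median of all tested genes (0.028). HEY1, ATOH8 and SMAD9 lie farthest to the right.

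Of the 12 other BMP ligands only 3 were tested, and 5 had no count in any library (BMP3, BMP10, BMP15, GDF2 and GDF6). BMP8B rose from 5.16 ± 0.720 to 8.43 ± 0.336 CPM (SD, n = 3), with a log2FC of 0.71 (adjusted p = 0.00393). It is nearly identical to BMP8A in sequence, so reads may be split between them. BMP6 had 1 to 9 counts in normoxia and 11 to 58 in hypoxia, with a log2FC of 1.89 (adjusted p = 0.0356). It was 3.09 without normoxia replicate 3 (adjusted p = 0.00541) and 2.68 without both libraries numbered 3. The call was lost without normoxia replicate 1 or 2 or hypoxia replicate 1 or 3 (adjusted p from 0.0693 to 0.126), with DESeq2 (adjusted p = 0.0578) or after thinning to equal depth (adjusted p = 0.0527).

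Among the other receptors and co-receptors, 5 of 7 tested genes were higher and 1 lower. ACVR1, the type I receptor used by BMP7, was at 8.13, 9.03 and 8.75 CPM in normoxia and at 18.1, 19.0 and 15.05 CPM in hypoxia. Its log2FC was 1.01 (standard error 0.12, adjusted p = 0.000419). The type II receptors ACVR2B and ACVR2A, which BMPs share with activins, had log2FCs of 0.96 (adjusted p = 0.000559) and 0.73 (adjusted p = 0.00434). RGMB, a BMP co-receptor, had a log2FC of 0.43 (adjusted p = 0.00694). ACVRL1, the type I receptor best known from endothelial cells, had 0 counts in all normoxia libraries and 10, 11 and 24 in hypoxia, and it was too low to test.

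The signal-transducing SMADs differed in size of change. SMAD9 was at 1.11, 0.779 and 0.355 CPM in normoxia and at 11.4, 12.2 and 7.14 CPM in hypoxia, with a log2FC of 3.73 (standard error 0.37, adjusted p = 0.000189). In both conditions the library numbered 3 was the lowest, and without both of these the log2FC was 3.63 (adjusted p = 7.22e-10). SMAD1 and SMAD5, the other SMADs that BMP receptors phosphorylate, had log2FCs of 0.11 (95% interval from -0.14 to 0.36, adjusted p = 0.397) and 0.24 (adjusted p = 0.0354). SMAD4, their common partner, had a log2FC of 0.26 (adjusted p = 0.0352). The calls of SMAD4 and SMAD5 were lost with any single library left out except hypoxia replicate 3 (adjusted p from 0.0573 to 0.129), and also with no filter on low counts (adjusted p of 0.0503 and 0.0572). CREBBP, a co-activator that SMADs recruit, had a log2FC of 0.46 (adjusted p = 0.00137).

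All 14 intracellular inhibitors were tested, and 8 were higher and 3 lower. BAMBI, a pseudoreceptor that blocks BMP and TGF-beta receptors, was at 49.0, 42.7 and 103 CPM in normoxia and at 194, 139 and 212 CPM in hypoxia. The library numbered 3 was the highest of each condition, and the groups did not overlap. Its log2FC was 1.49 (standard error 0.33, adjusted p = 0.0054), and 1.86 without both libraries numbered 3 (adjusted p = 7.48e-09). SKIL, a co-repressor of SMADs, rose by 1.14 on the log2 scale (adjusted p = 0.000354), and SMURF2, a ubiquitin ligase that acts on SMADs and receptors, by 0.51 (adjusted p = 0.00229). TOB1, which restrains SMAD1 and SMAD5, fell from 546 ± 111 to 213 ± 13.8 CPM (SD, n = 3), with a log2FC of -1.36 (adjusted p = 0.000227). CTDSPL, a phosphatase of the SMAD phosphatase family, fell by 0.66 on the log2 scale (adjusted p = 0.000667). SMAD7, the other inhibitory SMAD, had a log2FC of 0.20 (95% interval from -0.16 to 0.56, adjusted p = 0.298), which passed without both libraries numbered 3 (0.32, adjusted p = 0.0421).

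Of 19 secreted antagonists, 12 were tested, with 6 higher and 2 lower, and 3 had no count in any library (CER1, VWC2 and VWC2L). The summed level of the 19 genes was 201 to 249 CPM in normoxia and 199 to 249.9 CPM in hypoxia. The 2 lower ones were CRIM1 and BMPER. CRIM1 went from 132 to 96.2 CPM on average (log2FC -0.46, adjusted p = 0.0198), and BMPER had a log2FC of -1.73 (adjusted p = 0.011). FSTL3, which binds activins and some BMPs, had a log2FC of 1.14 (adjusted p = 0.00211). CHRD (chordin) and FST (follistatin) had log2FCs of 1.77 (adjusted p = 0.00548) and 2.02 (adjusted p = 0.00552) at low levels, with 9 to 40 and 3 to 5 counts in the normoxia libraries.

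BMP-responsive target genes other than the ID genes and SMAD6 were tested in 11 of 14 cases, with 7 higher and 1 lower. HEY1, a repressor that both BMP and Notch signals are known to raise, had 7, 6 and 3 counts in normoxia and 205, 158 and 535 in hypoxia. Its log2FC was 5.08 (standard error 0.28, adjusted p = 3.35e-05), and the ratio from summed counts was 35.9 with an exact 95% interval of 22.0 to 63.0. ATOH8, a target of BMP9 and BMP signals in endothelium and liver, had 4, 1 and 1 counts in normoxia and 64, 72 and 181 in hypoxia, a ratio of 33.8 with an exact 95% interval of 15.3 to 92.7. The fitted log2FC of ATOH8 was 4.99 (adjusted p = 9.13e-05), and 5.84 without normoxia replicate 1 (adjusted p = 0.000507). HEY1 and ATOH8 passed the filter on low counts only through hypoxia, so their calls are a description. Both exact intervals cover counting error only. JUNB and PMEPA1, which also respond to TGF-beta, had log2FCs of 1.58 (adjusted p = 7.04e-05) and 1.90 (adjusted p = 0.000126). The list is not specific to BMP, and its members do not show which signal was present.

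The E proteins, which ID proteins bind, changed in different directions. TCF4 was at 5.27, 5.70 and 7.30 CPM in normoxia and at 15.7, 16.2 and 26.0 CPM in hypoxia, with a log2FC of 1.67 (standard error 0.23, adjusted p = 0.000631). TCF3, which encodes E12 and E47, fell from 129 ± 13.6 to 87.7 ± 13.4 CPM (SD, n = 3), with a log2FC of -0.55 (standard error 0.13, adjusted p = 0.00657). TCF12 had a log2FC of 0.21 (adjusted p = 0.0425), and this call was lost with any single library left out except hypoxia replicate 3 (adjusted p from 0.102 to 0.159), and with edgeR's exact test, RLE factors or no filter (adjusted p from 0.058 to 0.0786). Of 21 tissue-restricted bHLH factors, the usual partners of E proteins, 4 were tested and 7 had no count in any library. ASCL2 and BHLHA15 rose by 1.18 (adjusted p = 0.000533) and 1.05 (adjusted p = 0.0103) on the log2 scale, and TWIST1 fell by 1.62 (adjusted p = 0.00115).

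Over the 6 libraries, the tested genes whose log2 CPM was most like that of ID2 were F2RL1, PTCH1 and PMAIP1 (Pearson's r from 0.998 to 0.999). For ID4 they were INAFM2, SLC4A1AP and HOOK1 (0.997 to 0.998), for ID3 WIZ, RTN4R and SPEF1 (0.966 to 0.994), and for ID1 ITFG2, FBXO21 and LMBRD2 (0.933 to 0.963). With 2 conditions and 6 libraries these values are descriptions of the pattern and share the libraries they were computed from.

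The genes that lie next to the members were taken by position, a choice made after the values of the members were seen. The 20 nearest tested neighbours, 1 on each side of each member, comprised 6 that were higher, 8 lower and 6 that did not pass, counts near the background of 30.4% higher and 29.1% lower among all tested genes. ID2-AS1 starts 0.12 kb from ID2 on the opposite strand and shares no exon bases with it. It had 22, 9 and 12 counts in normoxia and 52, 57 and 106 in hypoxia, with a log2FC of 1.73 (standard error 0.33, adjusted p = 0.0028). KIDINS220, on the other side of ID2 at a distance of 36.7 kb, had a log2FC of 0.40 (adjusted p = 0.00594). Both neighbours of BMP7 were lower, TFAP2C at 529 kb with -0.69 and RAE1 at 84.4 kb with -0.56 (adjusted p = 0.00031 and 0.000638). The largest change among the 20 was that of SMAD3, 284 kb from SMAD6, with a log2FC of 1.78 (adjusted p = 9.02e-05). E2F2, 26.7 kb from ID3, had a log2FC of -1.58 (adjusted p = 0.000252).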

How the data were processed

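RNA from 3 normoxia and 3 hypoxia libraries of T47D cells was sequenced on Illumina HiSeq after stranded mRNA library preparation. The authors checked reads with FastQC 0.11.5, removed adapters with Skewer, aligned them to GRCh37 (hg19) with STAR 2.5.2a and assigned them to RefSeq genes with featureCounts 1.5.1 (versions from the submitters' processing notes). The deposited values are raw counts, 1 file per library. The strand and multi-mapping settings are not given in the sources used here, so counts of near-identical and antisense genes are uncertain.

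Counts were analysed with R 4.3.3 and edgeR 4.0.16 (genes kept by filterByExpr at min.count 10 and min.total.count 15, TMM, quasi-likelihood test, condition as the only term, all 6 libraries). Alternatives were the exact test of edgeR, which the study used, DESeq2 1.42.0, RLE and upper-quartile factors, no filter, the replicate block, thinning to the smallest library and leaving out libraries. The steps were tested on simulated data. Standard errors were derived from the F statistic, and 95% intervals from the t distribution. CPM of untested genes use the same library factors, and RPKM uses the exon length in the files. Libraries with the same number deviated together from their group means (correlation across genes of 0.338, 0.422 and 0.575 for numbers 1, 2 and 3), and the study calls its samples paired, so the block is given where it changes a call. No 2 libraries of a condition agreed within sampling noise (chi-square per degree of freedom of at least 6.44). Of the counted exon ends of the members, those of BMPR2 all match the GENCODE annotation of GRCh37, and those of BMP4 match in 9 of 15 cases, the lowest share.

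The members and lists were chosen with earlier results of these data known. Named genes were all members, VEGFA and CA9, SMAD1, SMAD4, SMAD5, SMAD7, SMAD9, BAMBI and the E proteins, up to 4 genes of smallest adjusted p in each list, luminal and mesenchymal markers of high or uneven level, and the 3 genes most like each ID gene (Pearson correlation of log2 CPM with a pseudocount of 0.5, mean of at least 1 CPM). ACVRL1, KRT5, KRT14, KRT17, the neighbours and genes without counts were named after their values were seen (1 gene that the rule names is not reported here), and so were the spaced SMAD motif and the ratios of ID genes.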

Additional observations from a re-analysis of the deposited data

How the results depend on the processing

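Under upper-quartile factors the median over all genes shifted up by 0.157 (log2), and 5972 genes were called higher and 3285 lower (64.5% of calls higher), in place of 4765 and 4551 (51.1%). Across 14 alternatives, ID2, ID4, BMP4, BMP7, BMPR2 and SMAD6 kept their direction and their side of the threshold, with log2FC of 1.87 to 2.14, -0.91 to -0.66, 1.11 to 1.40, 3.94 to 4.72, 0.51 to 0.75 and 0.75 to 1.05. BMP7 passed the filter on low counts only through hypoxia, so its entry here is a description. With the replicate block, or without replicate 3, 2 members were lower, in place of 1. Leaving out 1 library at a time gave 5 to 6 members higher and 1 lower, 28 to 35 other pathway genes higher and 7 to 12 lower, and 3910 to 4991 of all genes higher and 3561 to 4924 lower. The block gave 5733 higher and 5511 lower genes. The sign of ID1 turned without normoxia replicate 2 (-0.086, in a range up to 0.25 when 1 library was left out). That of BMPR1B turned with upper-quartile factors (0.14), with the block (0.0047), without normoxia replicate 2 (0.13, in a range from -0.15 when 1 library was left out), without hypoxia replicate 2 (0.0047) or 3 (0.091), and without both libraries numbered 3 (0.085). The cause was not tested. BMPR1B had 12 to 32 counts per library. With CPM in place of RPKM, the share of ID1 in hypoxia was 31.0%, and that of ID4 was 1.90% in normoxia and 0.624% in hypoxia, since ID4 is the longest of the 4 genes.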
